A study of Mus musculus and Homo sapiens with 15 samples.

Results

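A set of 10 imprinted genes that act in growth before birth, H19, Igf2, Meg3, Rian, Dlk1, Peg3, Mest, Plagl1, Grb10 and Cdkn1c, were followed across 13 mouse tumour libraries made by RNA sequencing. They were picked by symbol, with values of these same comparisons already known, and all 10 were found in each mouse gene table, among 52340 genes for the thymus tumours and 56691 for the grafts. Their levels and fold changes in these comparisons are therefore given as descriptions, and no p-value is given for them. How many members were called is printed beside the share of all genes, and again under other processing, as a count from which nothing is read. The study compared T-cell lymphomas with and without arsenic trioxide (ATO), a drug used in leukaemia.

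The thymus tumours came from W/W mice, which carry the R282W mutation of p53 on both alleles, at day 150 after birth. The mice had been given water (3 libraries), or ATO with a tumour that was progressing (3 libraries) or regressing (3 libraries) when sampled. Outcome defines the ATO groups, so treatment and outcome cannot be told apart in a comparison with water. The grafted tumours grew in C57 mice labelled wild type that received phosphate-buffered saline (PBS, 2 libraries) or ATO (2 libraries). The labels do not name the grafted cells, the dose or the mouse ages in that experiment. Human U937 cells, a myeloid leukaemia line, expressed p53 R282W and gave 1 PBS and 1 ATO library. The labels do not say whether replicates of a group came from separate mice or grafts, so p-values measure only the spread between these libraries.

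Imprinted genes are transcribed mainly from the copy inherited from one parent, under the control of DNA methylation laid down in the germ line. Several sit in clusters in which a coding gene expressed from the paternal copy lies beside a long non-coding RNA expressed from the maternal copy, as Igf2 lies beside H19 and Dlk1 beside Meg3 and Rian. Many are abundant in the fetus and placenta and are switched down after birth. The libraries were not split by allele, so nothing here measures imprinting itself.

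Total counts were 12800367 to 17550594 in the W/W libraries and 12922147 to 15637644 in the grafts. Levels are given in CPM, counts relative to a library total that was adjusted by TMM, a scaling between libraries, and the scaling factors of water 2 (0.748) and progressing 2 (0.794) were the lowest of the 13. Water 2 also had the fewest genes with a count of the W/W libraries, 21372 beside 24374 to 27114 in the others. Among grafts, more genes had a count after ATO (23896 and 24034) than after PBS (20679 and 21543). Both ATO libraries had lower total counts than either PBS library, and higher scaling factors (1.05 and 1.09 beside 0.917 and 0.954). The cause of the wider detection was not tested. Mitochondrial genes held 2.08% to 8.83% of the W/W counts, 0.521% and 1.02% of the PBS graft counts and 5.98% and 4.03% of the ATO graft counts. The summed level of 14 thymocyte markers was 1467 to 1860 CPM in water, 4636 to 5267 CPM in progressing, 7016 to 13426 CPM in regressing, 7525 to 8809 CPM in PBS graft and 5055 to 6414 CPM in ATO graft libraries, with a count for every marker in both graft groups. The summed level of 12 thymic epithelium markers was 192 to 1172 CPM in water, 61.1 to 131 CPM in progressing and 1732 to 1962 CPM in regressing libraries. In such bulk tissue, fewer cells of a type and less RNA per cell cannot be told apart.

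H19 is a non-coding RNA that in mouse is also the precursor of a microRNA, miR-675. The gene lies on chromosome 7 of GRCm38 at chr7:142575529-142578143, on the minus strand, and the hairpin of the microRNA at chr7:142577064-142577147 falls inside an annotated H19 exon. Both mature forms are shown because H19 counts measure their precursor. Capitals mark the seed, bases 2 to 8, which pairs with target RNAs. Sequences are from RefSeq, GRCm38.p6.
mmu-miR-675-5p: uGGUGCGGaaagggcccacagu
mmu-miR-675-3p: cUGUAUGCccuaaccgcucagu
The gene entry for the hairpin had 0 counts in every one of the 13 libraries, and the libraries, made from mRNA, did not measure the mature forms.

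H19 was high in 2 of 3 progressing tumours and in both ATO-treated grafts. Its levels were 3.47, 2.06 and 5.85 CPM in the water libraries (replicates 1, 2 and 3), 454, 3.71 and 30.0 CPM in the progressing libraries and 4.38, 4.72 and 7.57 CPM in the regressing libraries. Progressing 1 alone held 89.3% of all H19 counts of the 9 W/W libraries, 7379 counts, while progressing 2 lay inside the range of the water libraries, so the groups overlapped. In grafts, H19 was 6.98 and 0.603 CPM after PBS and 40.0 and 104 CPM after ATO. The ATO grafts lay above both PBS grafts, and the PBS grafts themselves rested on 96 and 9 counts. The fitted log2 fold change was 5.41 (SE 1.37) for progressing against water, 0.54 (SE 1.18) for regressing against water and 4.26 (SE 0.73) for ATO against PBS grafts. Without progressing 1, the progressing value was 2.15.

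Igf2, the fetal growth factor that shares enhancers with H19, was counted in quantity in a single library. Its counts were 0, 1 and 511 in water, 0, 0 and 5 in progressing, and 1, 0 and 1 in regressing libraries, so water 3 held 98.5% of them, at 31.5 CPM. The same library had 95 H19 counts (5.85 CPM), and the library with the most H19 had no Igf2 count. Igf2 counts in grafts were 0 and 0 with PBS, 1 and 28 with ATO. These values were too low in too many libraries for the filter on low counts, and Igf2 was fitted in neither mouse table. Against a floor of 3 counts per library, mean Igf2 was at least 4.56-fold higher in the ATO grafts, which rests on ATO graft 2, and at least 53.1-fold lower in regressing than in water tumours, which rests on water 3. Igf2 overlaps the antisense gene Igf2os, which had 19 counts in water 3, and whether strand was used in counting is not given in the sources used here.

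On chromosome 12 lie Dlk1 (chr12:109452823-109463336), a transmembrane protein with EGF-like repeats related to Notch ligands, and the non-coding RNAs Meg3 (chr12:109541001-109571726) and Rian (chr12:109603808-109661716), all on the plus strand. The 250 bases before the RefSeq start of Dlk1 and of Meg3 are shown because Dlk1 had its highest W/W group mean in the water tumours and Meg3 its lowest. Searched on both strands over the full 300-base RefSeq promoter window, TATAAA matched at 2 overlapping places in the first of the Meg3 windows, on opposite strands, and is in capitals. Of 32851 promoter windows of this length, 13.6% held it. GGGCGG (35.7% of windows), GGGGCCCC (1.08%) and CANNTG (72.3%) matched in neither.
Dlk1, chr12:109452573-109452822: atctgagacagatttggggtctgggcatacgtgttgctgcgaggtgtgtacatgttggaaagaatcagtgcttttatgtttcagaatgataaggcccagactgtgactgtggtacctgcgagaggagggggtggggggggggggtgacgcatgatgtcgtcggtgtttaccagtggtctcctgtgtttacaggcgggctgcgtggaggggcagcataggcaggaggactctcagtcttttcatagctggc
Meg3, chr12:109540746-109540995: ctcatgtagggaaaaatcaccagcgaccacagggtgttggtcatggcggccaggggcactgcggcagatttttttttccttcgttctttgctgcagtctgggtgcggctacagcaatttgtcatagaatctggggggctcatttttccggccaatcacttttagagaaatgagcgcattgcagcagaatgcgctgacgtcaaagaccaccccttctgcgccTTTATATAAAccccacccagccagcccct
The Meg3 window had 13 CpG dinucleotides and the Dlk1 window 9, against a median of 7 over all windows.

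Dlk1 was highest in the water tumours. It was 19.2, 5.49 and 3.57 CPM in water, 0, 0.0843 and 3.52 CPM in progressing and 0.370, 0.0704 and 1.84 CPM in regressing libraries. All 3 water libraries lay above all 6 ATO libraries, although progressing 3 came within 0.1 CPM of water 3. The fitted log2 fold change against water was -2.96 (SE 1.54) in progressing and -3.61 (SE 1.59) in regressing tumours. With single libraries left out these values ran from -7.69 to -1.92 and from -5.21 to -2.56. In grafts Dlk1 was 0.0727 and 1.07 CPM after PBS and 0.663 and 0.919 CPM after ATO, and the groups overlapped. Dlk1 was the only member whose graft groups overlapped, but groups of 2 libraries separate easily. Of 20 other imprinted genes fitted in grafts, 10 were also separated. The share over all genes is not given here, so nothing is read from the members' separation.

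Meg3 and Rian kept close to each other from library to library. Meg3 was 2.32, 0.381 and 10.0 CPM in water, 6.28, 15.7 and 16.1 CPM in progressing and 2.47, 2.18 and 12.5 CPM in regressing libraries. Rian was 1.35, 0.229 and 3.45 CPM in water, 4.98, 6.83 and 7.92 CPM in progressing and 1.42, 1.41 and 6.25 CPM in regressing libraries. All 3 progressing libraries lay above all 3 water libraries for Rian, whereas for Meg3 water 3 lay above progressing 1. Both RNAs were also high in regressing 3, which overlapped the progressing range. The ratio of Meg3 to Rian counts was 1.26 to 2.91 over the 9 W/W libraries.

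In grafts that ratio differed between treatments. Meg3 rested on 4 and 8 counts after PBS (0.291 and 0.536 CPM) against 84 and 149 counts after ATO (6.18 and 9.78 CPM), a fitted log2 fold change of 4.23 (SE 0.57). Rian counts were 19 and 28 in PBS grafts (1.38 and 1.88 CPM) against 43 and 97 in ATO grafts (3.17 and 6.37 CPM), a log2 fold change of 1.55 (SE 0.52). The ratio of Meg3 to Rian counts was 0.211 and 0.286 after PBS and 1.95 and 1.54 after ATO. Rian shares its strand and region with 11 other gene entries among the W/W genes and 18 among the graft genes, so its counts may be split with them.

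Peg3 and Plagl1 both encode zinc-finger proteins expressed from the paternal copy. Plagl1 binds GC-rich DNA and regulates other imprinted genes. Peg3 lies at chr7:6703892-6730431 on the minus strand, and the 250 bases before its RefSeq start are shown with GGGGCCCC, a GC-rich run like those Plagl1 binds, in capitals. It matched once in the Peg3 window and in none of the windows of the 7 other members that have a promoter entry. H19 and Cdkn1c were not searched. A match is a description of the letters only.
Peg3, chr7:6730420-6730669: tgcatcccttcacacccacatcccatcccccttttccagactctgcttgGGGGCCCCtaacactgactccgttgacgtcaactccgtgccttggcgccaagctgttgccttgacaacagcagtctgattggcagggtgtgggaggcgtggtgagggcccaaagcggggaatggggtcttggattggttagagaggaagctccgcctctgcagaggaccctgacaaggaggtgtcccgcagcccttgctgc

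Peg3 was 2.06, 0.609 and 3.76 CPM in water, 53.0, 3.46 and 15.8 CPM in progressing and 4.75, 6.13 and 13.3 CPM in regressing libraries. As with H19, progressing 1 was highest, progressing 3 second and progressing 2 inside the water range. All 3 regressing libraries lay above all 3 water libraries. The fitted log2 fold change against water was 3.48 (SE 0.99) in progressing tumours, with a range of 2.16 to 4.15 when single libraries were left out, and 1.90 (SE 0.93) in regressing tumours. In grafts Peg3 had 3 counts in each PBS library and 14 and 89 counts after ATO (1.03 and 5.84 CPM), which put the mean at least 16.4-fold higher against the floor of 3 counts per library.

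Plagl1 (chr10:13060504-13131694) followed H19 only in its top library. It was 10.9, 1.37 and 24.0 CPM in water, 41.8, 2.36 and 2.93 CPM in progressing and 6.05, 3.80 and 5.33 CPM in regressing libraries. The 3 groups overlapped, and within water the highest library was 24.0 CPM and the lowest 1.37 CPM. In grafts it was 0.0727 and 0.268 CPM after PBS (1 and 4 counts) and 0.957 and 1.97 CPM after ATO (13 and 30 counts), a log2 fold change of 3.02 (SE 0.82). Without progressing 1 the log2 fold change of progressing against water turned from 0.38 to -2.18.

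Grb10 and Cdkn1c restrain growth. Grb10 (chr11:11930508-12038683) encodes an adaptor that binds the insulin and IGF1 receptors and dampens their signal, and Cdkn1c (chr7:143458339-143461050) encodes an inhibitor of cyclin-dependent kinases. Grb10 was 11.0, 4.19 and 264 CPM in water, 19.7, 104 and 265 CPM in progressing and 8.52, 7.04 and 15.3 CPM in regressing libraries. A single water library thus matched the highest progressing library, and all regressing libraries were below all progressing ones. The log2 fold change was -3.18 (SE 1.35) for regressing against water, with overlapping groups, and -3.65 (SE 1.38) for regressing against progressing. The first of these rests on water 3, without which it was 0.43. In grafts Grb10 was 4.07 and 2.68 CPM after PBS and 8.76 and 23.4 CPM after ATO, a log2 fold change of 2.25 (SE 0.49).

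Cdkn1c varied less than Grb10 in the W/W tumours. It was 5.79, 2.29 and 14.0 CPM in water, 16.4, 7.84 and 14.7 CPM in progressing and 4.94, 3.24 and 5.86 CPM in regressing libraries. Every regressing library lay below every progressing library, a log2 fold change of -1.47 (SE 0.67), while water overlapped both. In grafts it was 3.49 and 1.94 CPM after PBS and 3.53 and 9.58 CPM after ATO, so the groups were separated by 0.1 CPM or less, with a log2 fold change of 1.28 (SE 0.55).

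Mest, a paternally expressed gene for a protein of the alpha/beta hydrolase fold (chr6:30723547-30748465), was lowest in the regressing tumours. It was 2.64, 1.68 and 11.0 CPM in water, 3.32, 7.76 and 5.57 CPM in progressing and 0.679, 0.423 and 1.18 CPM in regressing libraries. All 3 regressing libraries, with 11, 6 and 18 counts, lay below the other 6. The log2 fold change was -2.73 (SE 0.84) against water and -2.85 (SE 0.84) against progressing. Without water 3 the first was -1.49. In grafts Mest was 3.05 and 2.48 CPM after PBS and 3.53 and 5.25 CPM after ATO, a log2 fold change of 0.67 (SE 0.46). Copg2, which overlaps Mest on the opposite strand, had 618 to 670 counts in the same 3 regressing libraries.

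**Figure D1:**
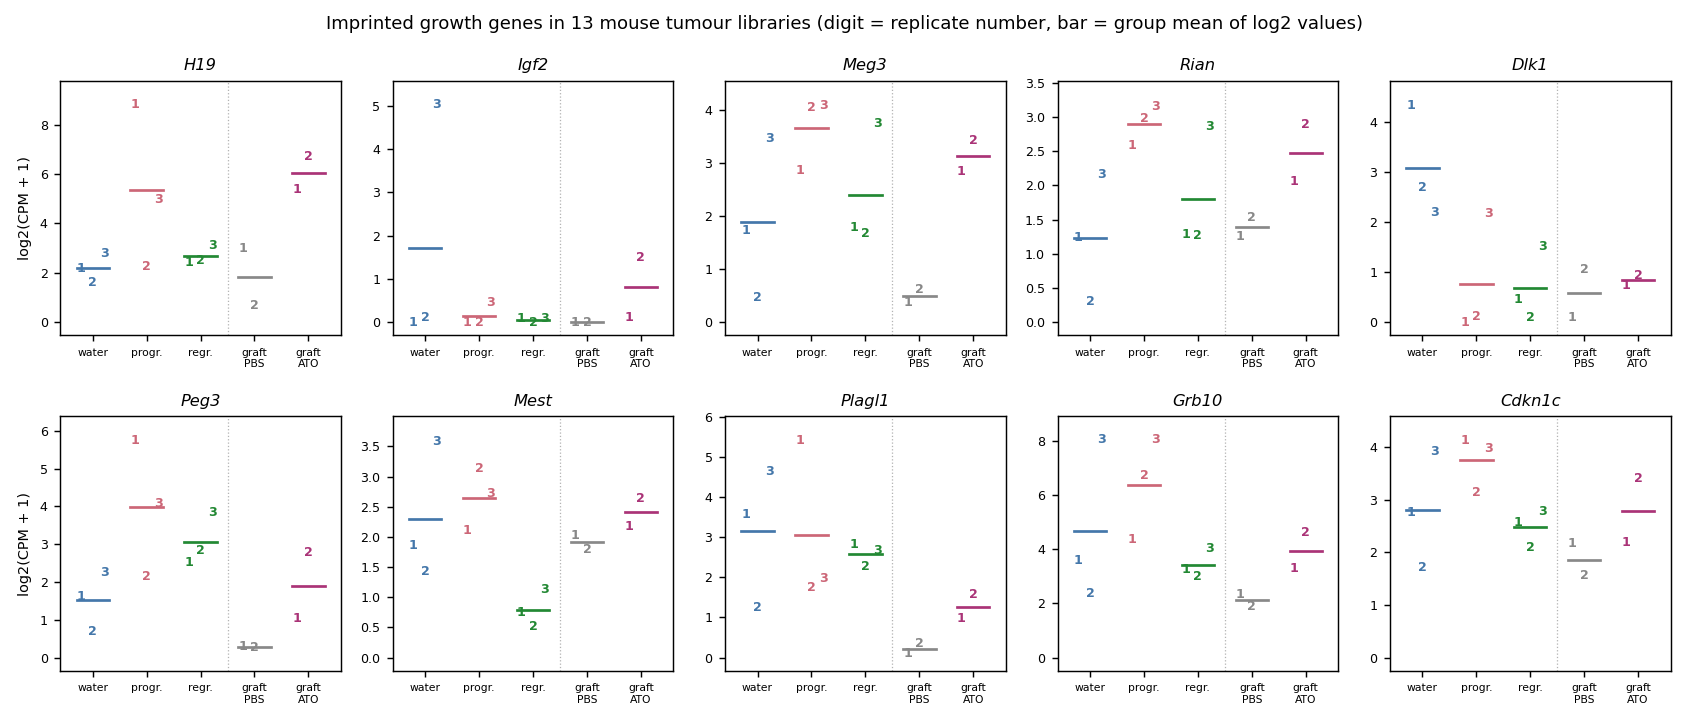
Level of each of the 10 genes as log2(CPM + 1), on its own vertical scale, in the 3 W/W groups and the 2 graft groups. Each digit is 1 library, named by its replicate number, and the bar is the group mean of the log2 values. H19, Peg3, Plagl1 and Cdkn1c peak in progressing 1, and Igf2 and Mest in water 3.

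The 10 genes did not share 1 top library in the W/W tumours. The highest level of H19, Peg3, Plagl1 and Cdkn1c was in progressing 1, that of Meg3, Rian and Grb10 in progressing 3, that of Igf2 and Mest in water 3 and that of Dlk1 in water 1. Water 2 was the lowest W/W library for H19, Meg3, Rian, Peg3, Plagl1, Grb10 and Cdkn1c, so the low end of their water range rests on it. The summed counts of all 10 genes ran from 241 in water 2 to 9745 in progressing 1. H19 made up 75.7% of the summed counts in progressing 1, and Grb10 made up 71.1% in water 3, 68.6% in progressing 2 and 73.2% in progressing 3. The regressing libraries had 545, 412 and 1051 counts in all, with no gene above 25.3%.

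On the authors' FPKM scale, which divides by gene length and library total, H19 in progressing 1 stood far above the rest. It reached 196 FPKM there, against 8.54 FPKM for Cdkn1c, 5.69 FPKM for Plagl1 and 4.14 FPKM for Peg3 in the same library. Grb10 was the most abundant member in water 3 (31.6 FPKM) and progressing 3 (30.1 FPKM), above Igf2 (5.99 FPKM) and H19 (2.59 FPKM) in water 3 and H19 (12.6 FPKM) in progressing 3. In the ATO grafts H19 was the most abundant member, at 16.0 and 43.0 FPKM, whereas in PBS graft 2 it was 0.22 FPKM, below Cdkn1c (0.91 FPKM). Rian never exceeded 0.26 FPKM in any of the 13 libraries, since its few counts spread over 31981 exonic bases.

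**Figure D2:**
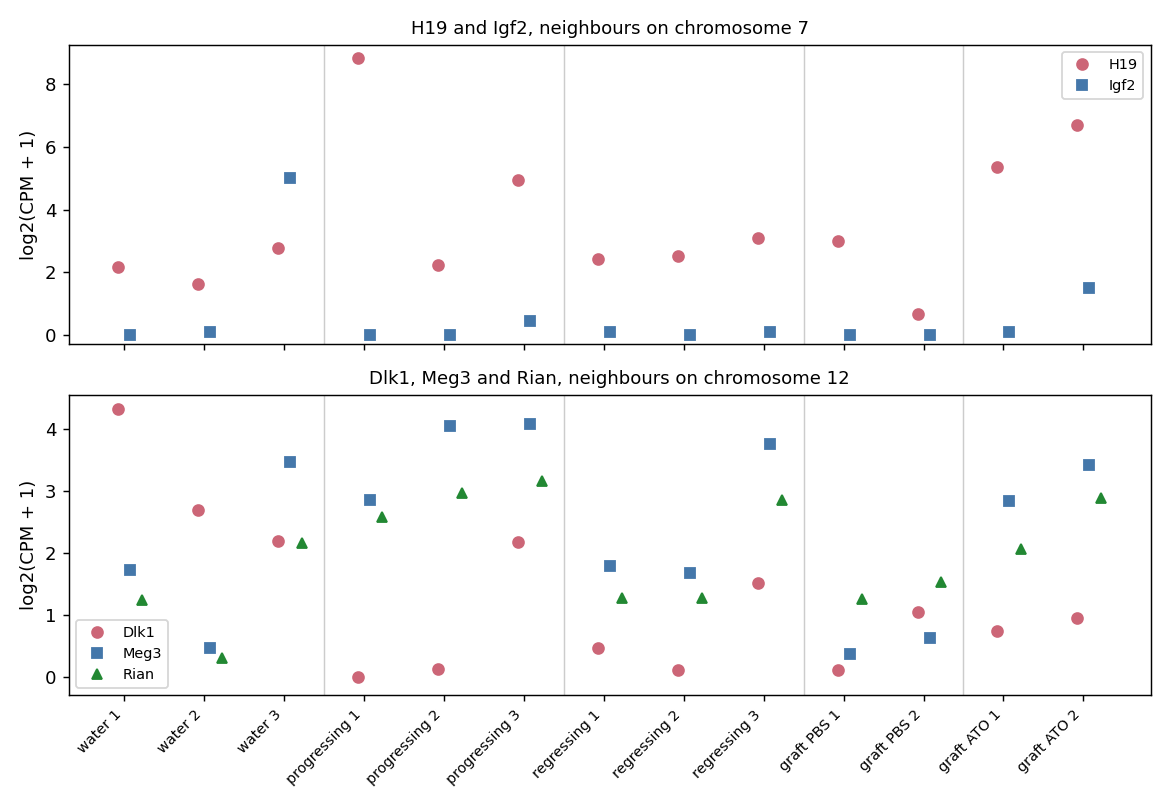
Levels of neighbouring genes in each of the 13 mouse libraries as log2(CPM + 1), with H19 and Igf2 above and Dlk1, Meg3 and Rian below. Grey lines separate the groups. Igf2 stands at 31.5 CPM in water 3, where H19 is 5.85 CPM, and Dlk1 is highest in water 1. The ratio of Meg3 to Rian counts is 1.26 to 2.91 over the W/W libraries.

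Across all genes, quasi-likelihood testing in edgeR (Benjamini-Hochberg adjusted) called 11.9% of 18119 genes for progressing against water (4.77% higher, 7.13% lower), and 2 of the 9 fitted members, H19 and Peg3, were among them. For regressing against water the same test called 7.7% of genes (3.13% higher, 4.57% lower) and 0 of the 9 members, with 3 members at an unadjusted p under 0.05, and DESeq2 called 1. For regressing against progressing it called 12.6% of genes (6.45% higher, 6.18% lower) and 2 members, H19 and Mest, both lower. For ATO against PBS grafts it called 13.9% of 15468 genes (7.37% higher, 6.57% lower) and 5 members, H19, Meg3, Peg3, Plagl1 and Grb10, all higher. These contrasts chose the members, so nothing is read from the counts. The fitted log2 fold change was positive for 8, 4 and 0 of 9 members in the first 3 contrasts, in that order, and for 9 of 9 in the grafts. Its median over the members was 0.81, -0.66, -1.58 and 2.25, beside -0.04, -0.11, -0.07 and 0.04 over all genes fitted. The 3 W/W contrasts share libraries, and the graft table was normalized separately. More genes had a count after ATO than after PBS among grafts, as given above. The part of this wider detection in the members' rise there was not tested.

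**Figure D3:**
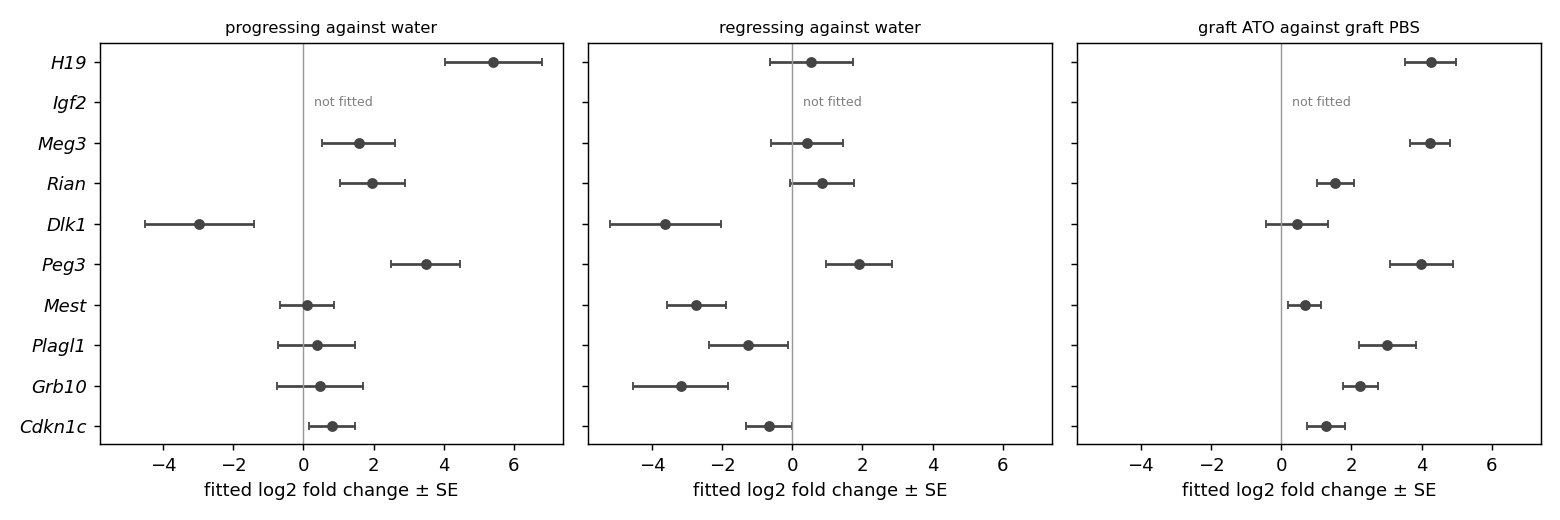
Fitted log2 fold change of each member in 3 contrasts, with 1 standard error to each side. Igf2 was not fitted. Against water, the members spread on both sides of 0, from -2.96 (Dlk1) to 5.41 (H19) in progressing tumours and from -3.61 (Dlk1) to 1.90 (Peg3) in regressing tumours, while all 9 lie above 0 in the grafts.

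Fibroblast, skeletal muscle and endothelium marker sums were higher in both ATO grafts than in both PBS grafts, and so, by a small margin, was the thymic epithelium sum. The thymocyte, adipocyte and macrophage sums were lower. The summed level of 11 fibroblast markers was 546 and 282 CPM after PBS and 743 and 1877 CPM after ATO. Every member had this order of ATO libraries, and so did the muscle and endothelium sums. The summed level of 13 skeletal muscle markers was 263 and 41.0 CPM after PBS and 445 and 471 CPM after ATO, with Myod1 at 0 counts in both PBS libraries. In the W/W tumours the fibroblast sum was 348 to 969 CPM in water, 845 to 1437 CPM in progressing and 109 to 407 CPM in regressing libraries. Progressing 1, with the most H19, had the lowest fibroblast sum of its group, at 845 CPM. Regressing 3 had the highest of its group, at 407 CPM, and also the highest level of every member but Plagl1, with Igf2 at 1 count. It was also highest of its group in the adipocyte (5494 CPM), endothelium (329 CPM), macrophage (866 CPM) and B cell (177 CPM) sums. Its thymocyte (7016 CPM) and muscle (46.3 CPM) sums were the lowest of the group. With several marker sums highest in the same library, these cell types cannot be told apart there. The muscle sum was 33.1 to 71.9 CPM over the 9 W/W libraries. Other marker sums in water, progressing and regressing libraries were 41.8 to 145, 121 to 1415 and 168 to 5494 CPM for adipocytes, 1584 to 2258, 269 to 1244 and 452 to 866 CPM for macrophages, 117 to 188, 144 to 312 and 148 to 329 CPM for endothelium, and 91.5 to 3296, 12.7 to 49.3 and 109 to 177 CPM for B cells. In PBS and ATO grafts they were 77.4 to 114 and 48.8 to 60.8 CPM for adipocytes, 621 to 805 and 331 to 369 CPM for macrophages, 212 to 228 and 235 to 313 CPM for endothelium, and 16.4 to 18.2 and 14.4 to 27.5 CPM for B cells. The thymic epithelium sum was 53.5 to 58.9 CPM over the 4 grafts. The part of these cells in the members' levels was not tested.

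Genes whose W/W profile lay nearest to a member were ranked by the root mean square difference of centred log2(CPM + 1) over the 9 libraries, among 16495 other genes that averaged 1 CPM or more. Nearest to H19 were Rtl3 (0.52), 9330102E08Rik (0.59), Grik1 (0.62), Bex1 (0.65) and Gm266 (0.69), all at 37.9 to 257 CPM in progressing 1. Peg3 ranked 31 from H19 and Igf2 ranked 14777. Nearest to Meg3 was Rian, at 0.37, followed by Myo5b, Crispld2, Lamc3 and Tshz2. Nearest to Igf2 were Gm28320, Aadacl2fm2, Gm28319, 9330188P03Rik and 1700012B07Rik, each at 12.8 CPM or more in water 3. Nearest to Dlk1 were Spin2c, Pctp, Hvcn1, Ccdc116 and Pcsk4. All these genes follow a member's levels because they were ranked on them, so nothing is read from where they are high. With a pseudocount of 0.1 in place of 1, the nearest 5 kept 1 gene for H19, 3 for Igf2, 3 for Meg3 and 0 for Dlk1, so the rankings depend on how low counts are treated.

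The insulin-like growth factor (IGF) and insulin axis, through which Igf2 and Grb10 act, was read from a list of its genes. It comprises the receptors, the secreted IGF-binding proteins and the IGF2 mRNA-binding proteins, and 18 of its 20 listed genes were fitted in W/W tumours and 15 in grafts. By edgeR's quasi-likelihood test, 1 gene was higher and 3 were lower in regressing than in progressing tumours, 22.2% of those fitted beside 12.6% of all genes. For progressing against water 1 was lower and 0 higher (5.56% beside 11.9%), and for regressing against water 2 were lower and 0 higher (11.1% beside 7.7%). The list's share was thus above the share of all genes in some contrasts and below it in another, and nothing particular to the list is read from it. Its median log2 fold change for regressing against progressing was 0.05, beside -0.07 over all genes.

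Igfbp5, a secreted protein that binds IGFs, was 54.9, 134 and 172 CPM in water, 10.6, 31.7 and 13.7 CPM in progressing and 514, 374 and 365 CPM in regressing libraries. No group overlapped another: regressing was highest and progressing lowest. Regressing against progressing, its log2 fold change was 4.49 (SE 0.56, adjusted p = 0.00647, edgeR), and the call held in 6 of 6 fits that left out 1 of the compared libraries. Igfbp5 fell by 2.69 on the log2 scale in progressing against water (SE 0.52, adjusted p = 0.0111, edgeR), and that call was lost without progressing 3. The order of the groups was that of the thymic epithelium marker sum given above, and the part of those cells was not tested.

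Igfbp3, which carries IGFs in the blood, and the related Igfbp7 ran the other way. Igfbp3 was 19.6, 36.6 and 26.9 CPM in water, 54.1, 64.5 and 103 CPM in progressing and 4.94, 5.70 and 22.2 CPM in regressing libraries, a log2 fold change of -2.75 for regressing against progressing (SE 0.59, adjusted p = 0.0207, edgeR). Igfbp7 averaged 74.6 ± 31.3 CPM (SD, n = 3) in progressing and 22.4 ± 11.9 CPM in regressing libraries, a log2 fold change of -1.73 (SE 0.46, adjusted p = 0.0370, edgeR). Both groups were separate for both genes. The call for Igfbp3 was lost without progressing 3, regressing 1 or regressing 2, and that for Igfbp7 without progressing 2, progressing 3, regressing 1 or regressing 2.

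The IGF2 mRNA-binding proteins, which bind Igf2 and other transcripts, were low in the regressing tumours. Igf2bp2 was 13.8, 14.2 and 27.5 CPM in water, 18.5, 28.7 and 57.9 CPM in progressing and 3.33, 3.38 and 4.54 CPM in regressing libraries. The regressing libraries lay below the other 6. Its log2 fold change was -3.22 against progressing (SE 0.53, adjusted p = 0.0110, edgeR), lost only without regressing 1, and -2.30 against water (SE 0.52, adjusted p = 0.0280, edgeR), lost without water 3 or any 1 regressing library.

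Igf2bp3 was 16.8, 24.4 and 24.0 CPM in water, 26.1, 14.2 and 2.05 CPM in progressing and 3.27, 2.18 and 3.29 CPM in regressing libraries. All regressing libraries were below all water libraries, a log2 fold change of -2.89 (SE 0.75, adjusted p = 0.0441, edgeR). That call was lost when any 1 of the 6 compared libraries, or progressing 2, was left out. Regressing against water, these were the 2 genes of the axis that passed, both lower.

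**Figure D4:**
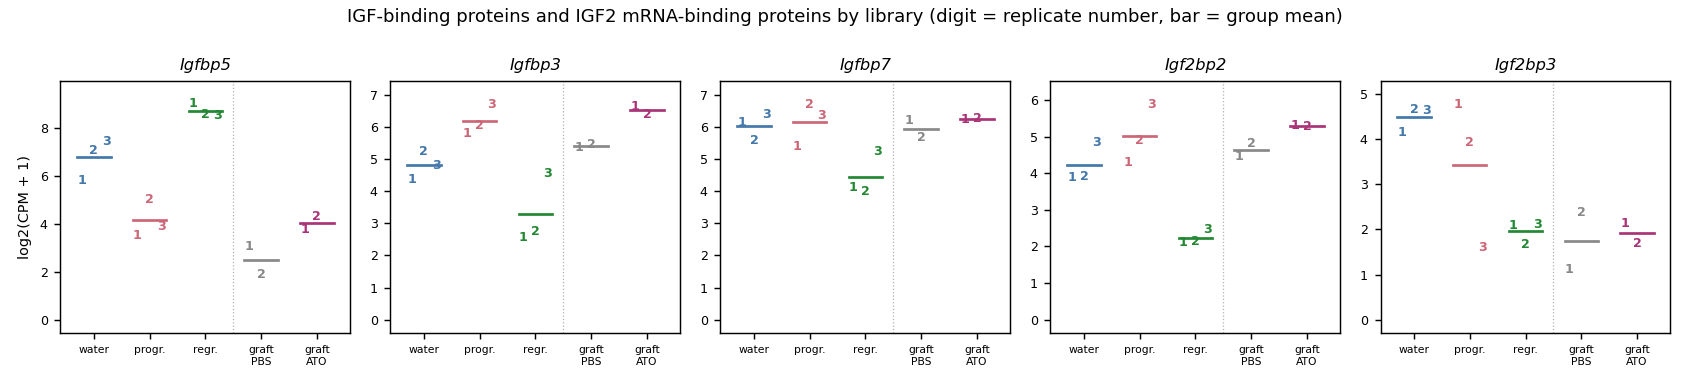
Levels of 3 IGF-binding proteins and 2 IGF2 mRNA-binding proteins as log2(CPM + 1), with digits for replicate numbers and bars for group means of the log2 values. Igfbp5 is highest in the 3 regressing libraries (365 to 514 CPM) and lowest of the W/W groups in progressing ones, and Igf2bp2 is at 3.33 to 4.54 CPM in the regressing libraries, below every other W/W library.

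In the grafts 3 of 15 fitted genes of the axis were higher after ATO and 0 lower (20% beside 13.9% of all genes, median log2 fold change 0.48 beside 0.04). Igfbp3 was 39.8 and 42.4 CPM after PBS and 98.6 and 82.2 CPM after ATO, a log2 fold change of 1.14 (SE 0.21, adjusted p = 0.0105, edgeR) that held in 4 of 4 fits leaving out 1 library. Insr, the insulin receptor, rose from 15.2 ± 2.83 to 35.7 ± 2.94 CPM (SD, n = 2 each; adjusted p = 0.0171, edgeR), a call lost without PBS 1. Igfbp5 rose from 5.01 ± 3.20 to 15.5 ± 4.29 CPM (SD, n = 2 each; adjusted p = 0.0402, edgeR), a call lost without PBS 2.

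Of 28 other imprinted genes fitted in W/W tumours, 0 passed edgeR's quasi-likelihood test for regressing or for progressing against water, with 5 and 3 at an unadjusted p under 0.05, while DESeq2 called 3 and 2. Over all genes edgeR called 7.7% and 11.9% in these contrasts. Regressing against progressing, 2 passed and both were lower (7.14% beside 12.6%). Ddc, the enzyme that makes dopamine and serotonin, was 50.6, 9.36 and 17.9 CPM in progressing and 0.741, 1.41 and 1.51 CPM in regressing libraries, a log2 fold change of -4.40 (SE 0.97, adjusted p = 0.0220, edgeR). Inpp5f, an inositol phosphatase, was 75.4 ± 21.4 and 26.0 ± 2.22 CPM (SD, n = 3 each), a log2 fold change of -1.53 (SE 0.37, adjusted p = 0.0275, edgeR). The call for Ddc was lost without progressing 3 or any 1 regressing library, and that for Inpp5f without progressing 2, progressing 3 or any 1 regressing library.

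In the grafts 1 of 20 other imprinted genes was higher and 1 lower after ATO (10% beside 13.9%, median log2 fold change 0.03). Airn, the non-coding RNA antisense to Igf2r, rose from 7.35 ± 0.121 to 17.7 ± 2.22 CPM (SD, n = 2 each; adjusted p = 0.0294, edgeR), a call lost without either PBS library. Commd1 fell by 0.89 on the log2 scale (SE 0.20, adjusted p = 0.0189, edgeR), a call lost without PBS 1. Reads of antisense partners cannot be told apart unless strand was used in counting.

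Among regulators that keep imprints or time fetal growth, 15 genes were fitted in W/W tumours and 12 in grafts. Tet1, which oxidises methylated cytosine, was 11.8, 1.30 and 5.91 CPM in water and 52.7, 22.6 and 29.9 CPM in progressing libraries, a log2 fold change of 2.47 (SE 0.69, adjusted p = 0.0436, edgeR) that was lost without water 3, any 1 progressing library or any 1 regressing library, the last of which enter only the shared estimate of spread. It was the only call of the list there (6.67% beside 11.9%). For regressing against water 0 passed edgeR's test (beside 7.7% of all genes), with 3 at an unadjusted p under 0.05 and 2 by DESeq2, and for regressing against progressing 0 passed (beside 12.6%), with 0 at an unadjusted p under 0.05 and 0 by DESeq2. In grafts 3 were higher after ATO (25% beside 13.9%, median log2 fold change 0.47). Tet3 rose from 72.7 ± 10.5 to 191 ± 21.6 CPM (adjusted p = 0.00534, edgeR) and Zfp445, a zinc-finger protein that keeps imprint methylation, from 81.5 ± 15.5 to 194 ± 45.5 CPM (adjusted p = 0.0104, edgeR), both held in 4 of 4 fits leaving out 1 library (SD, n = 2 each). Tet2 rose from 13.6 ± 3.95 to 34.0 ± 0.969 CPM (SD, n = 2 each; adjusted p = 0.0171, edgeR), a call lost without PBS 1.

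In U937 cells, which share the p53 mutation but not the tissue, the human counterparts were compared between 1 PBS and 1 ATO library, with no replicates and so no test. H19 counts were 39 with PBS and 132 with ATO, 2.18 CPM (exact Poisson 95% interval 1.55 to 2.98) against 8.02 CPM (6.71 to 9.51), a ratio of 3.68. CDKN1C had 5 and 101 counts, 0.280 and 6.14 CPM, a ratio of 21.9 with a counting interval of 9.10 to 69.0. DLK1 had 257 and 496 counts, 14.4 and 30.1 CPM, a ratio of 2.10. The 3 were at least 2-fold higher in the ATO library, out of 5 counterparts averaging 1 CPM or more, where 19.1% of 13722 such genes were. Of the same 5, 0 were at least 2-fold lower, beside 10.2% of the genes.

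PLAGL1 was 54.9 and 69.7 CPM and GRB10 was 239 and 260 CPM, ratios of 1.27 and 1.09. IGF2, PEG3 and MEG8, the counterpart of Rian, had 0 counts in both libraries, where 3 counts correspond to 0.168 CPM after PBS and 0.182 CPM after ATO. MEG3 had 0 and 2 counts and MEST 0 and 3. GRB10 was thus the most counted of the 10 in this line. The intervals cover counting error only.

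**Figure D5:**
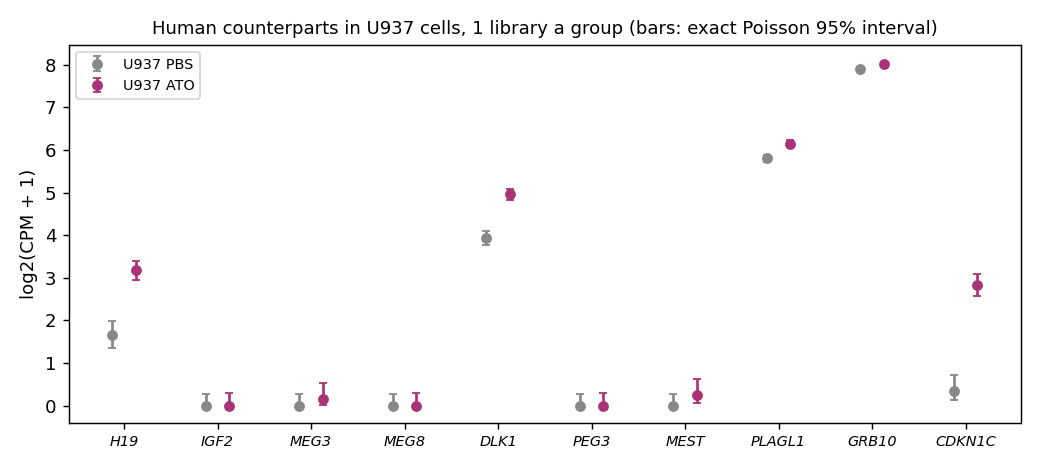
Human counterparts of the 10 genes in U937 cells as log2(CPM + 1), 1 PBS and 1 ATO library, with exact Poisson 95% intervals for counting error. The intervals of H19, DLK1 and CDKN1C do not overlap between the libraries, and IGF2, MEG8 and PEG3 have 0 counts in both.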

How the data were processed

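Each system has 1 table in which the authors deposited gene counts without normalization and, beside them, FPKM values, the latter used here only to compare levels between genes. Per the submitters' processing notes, reads were handled with FastQC 0.10.1, cutadapt 1.9.1 and HISAT2 2.0.1, with GRCm38 and mm10 as builds; how genes were counted, with or without strand, and on which annotation is not given in the sources used here. Per the labels' protocols, TRIzol RNA went into SMARTer mRNA-Seq libraries, in a text that also holds a cell culture passage, so how far it applies is unclear. The W/W table uses GRCm38 (its gene bounds equal those of GENCODE vM21 for 99.4% of the 52083 gene IDs found there, and for 9 of the 10 members). The graft table uses another build, whose coordinates were not used. In the W/W table the totals implied by FPKM exceeded the summed counts by 0.106% to 2.33%, so some counted features were not analysed here.

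The counts entered edgeR 4.0.16 (R 4.3.3, filterByExpr, TMM, quasi-likelihood test, Benjamini-Hochberg over all genes fitted, adjusted p under 0.05). The 9 W/W libraries were fitted together as 3 groups and the 4 graft libraries alone. A group with 3 counts or fewer in every library was taken as at the floor. The 10 members, the 3 gene lists and the 8 marker lists were chosen with earlier results of these data known. All members are named. Of the lists, the genes past the threshold are named, at most the 6 largest per list and contrast. U937 CPM used library totals of 17872972 (PBS) and 16454534 (ATO) counts. The fit was also run on simulated counts with known changes, and nothing about these data is read from that run. Alternatives were DESeq2 1.42.0, other scalings, no filter on low counts, a replicate block, only the compared groups, and leaving out each library. Sample columns left out for want of a label numbered 0.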

Additional observations from a re-analysis of the deposited data

Results flagged for a closer look

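Among the fitted genes of the 3 lists, 6 passed the threshold for the difference between the ATO groups, regressing minus progressing. The test was edgeR's quasi-likelihood fit (Benjamini-Hochberg adjusted), which called 12.6% of all genes in this contrast. It called 22.2% of the IGF axis, 7.14% of other imprinted genes and 0% of imprint regulators. For these 6 genes the difference from water was thus not the same in both ATO groups. As log2 values, they were 4.49 for Igfbp5, -3.22 for Igf2bp2, -2.75 for Igfbp3, -1.73 for Igfbp7, -4.40 for Ddc and -1.53 for Inpp5f. These genes are singled out because water is the shared control of both groups, which makes the direct comparison of the ATO groups the test of that difference.

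Mest lay below all water libraries in the regressing tumours and above all PBS libraries in the ATO grafts. The fitted log2 fold changes differed by -3.40 (regressing minus graft). This difference was not tested, and the values come from tables normalized separately.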

How the results depend on the processing

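Counts of calls moved with the tool, the filter and single libraries. All genes called for regressing against water, progressing against water, regressing against progressing and ATO against PBS grafts were 1396, 2157, 2288 and 2157. DESeq2 gave 3354, 3733 and 4121 in the W/W contrasts, and no filter on low counts gave 2689, 3594, 3621 and 3274. Fitting only the compared groups gave 882 for progressing against water. With each library left out in turn the counts ran from 60 (without regressing 2) to 1671, from 907 (without progressing 3) to 2557, from 177 (without regressing 1) to 3825 and from 685 (without PBS 1) to 2420.

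Member calls (0, 2, 2 and 5) were 1 with DESeq2 and 4 with no filter for regressing against water. They were 1 with library totals only, 4 with no filter and 0 with only the compared groups for progressing against water, and 1 with edgeR's RLE scaling and 1 with totals only for regressing against progressing. Leaving out libraries gave 0 to 0, 0 to 2, 0 to 3 and 3 to 8. Calls on the IGF axis (2, 1, 4 and 3) were 5 with DESeq2, 6 with no filter and 4 with only the compared groups for regressing against water, 3 with no filter for progressing against water, and 5 with totals only and 5 with no filter in grafts. Leaving out libraries gave 0 to 4, 0 to 2, 1 to 5 and 2 to 4.

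Calls on other imprinted genes (0, 0, 2 and 2) were 3 with DESeq2, 2 with no filter and 1 with only the compared groups for regressing against water, 2 with DESeq2 and 2 with no filter for progressing against water, 4 with no filter and 4 with only the compared groups for regressing against progressing, and 4 with totals only, 4 with DESeq2 and 5 with no filter in grafts. Leaving out libraries gave 0 to 1, 0 to 0, 0 to 3 and 0 to 5. Calls on imprint regulators (0, 1, 0 and 3) were 1 with totals only, 2 with DESeq2, 1 with no filter and 1 with only the compared groups for regressing against water, and 0, 2, 2 and 0 in that order for progressing against water. Leaving out libraries gave 0 to 1, 0 to 3, 0 to 0 and 2 to 4. The cause of these moves was not tested. In 162 of these recounts the value stayed within 1.5 times, unchanged counts of 0 included, and in 113 it moved further. No fitted fold change of a named gene that passed the threshold changed sign.

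Replicate numbers are shared between groups. Correlations of deviations ran from -0.124 to 0.153 for same-numbered W/W libraries and from -0.172 to 0.171 for the others. A W/W library was nearest to its own number in 10 of 18 comparisons with another group, each a choice among 3 libraries. That is more often than an even choice would give, but each pair of libraries enters from both sides, so the 18 are not independent. In grafts, centring 2 libraries a group makes same-numbered (-0.117) and crossed (0.117) values equal and opposite. Whether the numbers pair libraries is thus neither shown nor excluded. With a replicate block the counts over all genes were 956, 1405, 1597 and 1350. In the same block fit member calls were 0, 0, 0 and 4, IGF axis calls 1, 1, 4 and 2, other imprinted calls 0, 0, 2 and 1, and regulator calls 0, 1, 0 and 3. The crossed pairing of grafts, added after the data were seen, gave a block with 3298 genes, 6 members, 5 IGF axis genes, 4 other imprinted genes and 4 regulators. Depth limits Igf2, Dlk1, Meg3, Peg3 and Plagl1, which had 16 counts or fewer in every library of at least 1 group, and 2 graft libraries a group leave little measure of spread.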

Other observations

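In the W/W tumours several genes near Igf2 in profile were counted in water 3 alone: Gm28320 stood at 35.4 CPM there and at 0 counts in the other 8 libraries, and Gm28319 at 12.8 CPM and 0. Both were at 0 in the 4 grafts. Grik1, a glutamate receptor subunit near H19 in profile, was 170 CPM in progressing 1 and at most 2.20 CPM in the other 8 libraries. Rtl3, a gene derived from a retrotransposon, was 105 CPM in progressing 1 and 11.7 CPM in progressing 3, the 2 libraries with the most H19, and at most 0.337 CPM in the other 7. These genes were chosen by likeness to the members, so no test was made.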
